A study of Mus musculus with 141 samples.

Results

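The genes described here were the mouse histocompatibility genes of the H2 complex, taken as every gene whose symbol starts with H2-. There were 45 such genes among the 36558 in the deposited tables, 35856 of which carried a symbol, and all 45 lay on chromosome 17 between positions 33974659 and 37483552 (GRCm38). A filter on low counts kept 31 of them, of 16765 genes kept in all. The other 14 are given only by their levels, except that H2-T3, H2-M11 and H2-M6-ps entered the comparison of strain families. The prefix also takes in H2-Ke6, a steroid dehydrogenase gene that lies in the complex and is not a histocompatibility molecule.

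The H2 complex encodes the proteins that show peptides to T cells. Class I molecules, whose classical heavy chains are H2-K1 and H2-D1, sit on almost every nucleated cell and present peptides made inside it, while the Q, T and M regions hold many related class Ib genes with narrower or unknown roles. Class II molecules pair an alpha with a beta chain (H2-Aa with H2-Ab1, and the E alpha chain with H2-Eb1) on B cells, dendritic cells and activated macrophages, and H2-DM and H2-DO, encoded by H2-DMa, H2-DMb1, H2-DMb2, H2-Oa and H2-Ob, control how peptide is loaded onto them. The complex is inherited as a block called a haplotype: C57BL/6J carries the b haplotype, DBA/2J and BALB/cJ the d haplotype, C3H/HeJ the k haplotype and A/J the a haplotype.

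The RNA came from inguinal white adipose tissue, a subcutaneous fat depot, of inbred mice of the Hybrid Mouse Diversity Panel that all ate a high-fat, high-sucrose diet for 8 weeks, starting at 8 weeks of age, and were fasted for 4 hours before collection. Libraries came from 82 strains, 67 labelled female and 74 labelled male: 40 BXD strains (from C57BL/6J and DBA/2J), 11 AXB or BXA strains (C57BL/6J and A/J), 4 BXH strains (C57BL/6J and C3H/HeJ), 3 CXB strains (C57BL/6J and BALB/cJ) and 24 classical inbred strains. In 59 strains there was 1 library of each sex, and every test used these paired libraries. No other treatment or diet was present, so all groups share the diet, and strain labels carry their own alleles, such as rd16 of Cep290 in BXD24/TyJ-Cep290<rd16>/J and T<+> and tf in BTBR T<+> tf/J.

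With 1 library per strain and sex, the female and male library were the only repeat of a strain, and they differ in sex as well as in the sample. Estimated counts per library ranged from 6269154 to 78562648 (median 30233245), and from 20568201 to 78562648 in the paired libraries. In 3 libraries the summed Y-linked counts went against the labelled sex. Of these, only the library labelled NZW/LacJ male is among the paired libraries, so results that rest on it are given with and without it, and the other 2 are the BXD34/TyJ and BXD69/RwwJ libraries labelled female. The adipocyte markers Adipoq, Plin1, Plin4, Cidec and Fabp4 summed to between 3340 and 43943 CPM (counts scaled to one library total) in the paired libraries, so markers of the labelled tissue were present in each.

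Short stretches before the start of 6 members show the letters that class II and class I promoters share. Each is the 150 bases up to the RefSeq gene start (GRCm38.p6), 5′ to 3′ on the gene's strand, and capitals mark the Y box, ATTGG on either strand, or, in H2-T23, also the interferon response core, GAAANNGAA on either strand. They are shown because H2-Aa, H2-Eb1 and H2-Ob moved together across libraries, H2-K1 and H2-D1 were the most abundant members, and H2-T23 was one of only 2 members whose window held the interferon core. The windows are chr17:34287824-34287973 (minus strand), chr17:34305717-34305866 (plus), chr17:34238755-34238904 (plus), chr17:34000348-34000497 (minus), chr17:35262944-35263093 (plus) and chr17:36032702-36032851 (minus), in the order printed.
H2-Aa: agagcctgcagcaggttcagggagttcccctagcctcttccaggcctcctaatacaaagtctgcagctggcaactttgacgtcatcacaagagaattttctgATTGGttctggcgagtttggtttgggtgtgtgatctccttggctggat
H2-Eb1: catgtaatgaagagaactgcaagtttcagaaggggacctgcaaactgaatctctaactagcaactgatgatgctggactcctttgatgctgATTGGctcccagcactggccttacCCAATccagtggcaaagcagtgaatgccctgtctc
H2-Ob: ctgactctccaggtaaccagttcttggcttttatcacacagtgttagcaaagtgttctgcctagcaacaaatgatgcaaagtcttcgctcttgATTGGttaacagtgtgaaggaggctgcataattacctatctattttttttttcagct
H2-K1: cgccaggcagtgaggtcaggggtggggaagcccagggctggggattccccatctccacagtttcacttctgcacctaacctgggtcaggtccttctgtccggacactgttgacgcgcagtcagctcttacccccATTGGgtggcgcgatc
H2-D1: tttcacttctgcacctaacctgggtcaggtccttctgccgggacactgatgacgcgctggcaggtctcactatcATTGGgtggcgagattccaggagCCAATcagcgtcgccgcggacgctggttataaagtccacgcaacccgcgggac
H2-T23: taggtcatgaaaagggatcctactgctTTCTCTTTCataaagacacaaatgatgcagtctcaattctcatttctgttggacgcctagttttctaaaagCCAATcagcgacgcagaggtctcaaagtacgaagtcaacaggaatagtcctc

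Over the whole RefSeq windows (250 bases before to 50 after the start), the Y box on either strand was present for 29 of the 32 members with a window, against 37.4% of all 32851 windows. The interferon core was found for 2 of the 32 (H2-T23 and H2-T22) against 8.56% of all windows, and the X box core GCAACAG on either strand for 1 of the 32, in the M region, against 5.48%. Searches used both strands and only these exact letters, so other spellings of the same elements were not counted. None of the motifs contains another. No window was listed for H2-Ab1 or H2-Ea-ps.

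Levels between genes are compared in TPM, which are per length. Median TPM over all libraries was highest for the class I heavy chains H2-K1 (1370) and H2-D1 (1138), followed by the class II chains H2-Aa (468), H2-Eb1 (381) and H2-Ab1 (205). The class Ib genes H2-Q4 (154), H2-T22 (129), H2-T23 (96.3) and H2-Q6 (88.4) came next. In all, 7 members had a median over 100 TPM, 13 between 10 and 100, 8 between 1 and 10, and 17 at most 1. Among the 14 members that failed the filter, 10 of which lie in the M region, the highest value in any library was 14.3 TPM, for H2-T3.

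Spread across libraries differed more between members than their medians do between neighbours in this order. Within the most abundant genes, normalised CPM (scaled by the trimmed mean of M values, TMM) of H2-K1 ranged from 226 to 2540 and of H2-D1 from 298 to 2323. At the other end, H2-Ea-ps, the E alpha chain gene that the reference annotation calls a polymorphic pseudogene, ranged from 0 to 1343 CPM and was at 0 in 28 libraries. H2-M10.1, a vomeronasal class Ib gene, had more than 3 counts in 2 libraries, those of SM/J (2.03 CPM female, 5.44 CPM male). The reads were assigned to transcripts of a single reference genome, that of C57BL/6J, and class I genes are alike in sequence, so for strains with another haplotype an RNA difference and a difference in how reads match cannot be told apart.

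How much sequence the members share bears on this limit. Of the distinct stretches of 31 bases in the spliced transcripts of a member, the share also present in another gene was 57.8% for H2-Q5, 51.01% for H2-T22, 50.7% for H2-T10, 50.3% for H2-Q6, 48.4% for H2-T-ps and 39.1% for H2-Q7. For the class I heavy chains it was 22.8% for H2-K1 and 26.7% for H2-D1. By contrast, it was 0% for H2-Ea-ps and 0.833% for H2-Aa, and in the T region it was as low as 6.43% for H2-T24 and 4.12% for H2-T3. Values of the members with large shares, among them H2-K1, H2-D1, and H2-DMb1 and H2-DMb2, which share 31.4% of the stretches of H2-DMb1, are therefore uncertain as to which copy the reads came from. In C3H/HeJ, for example, H2-Q5 stood at 31.4 and 36.8 CPM, and its TPM per CPM was 17.3 and 19.2 against a median of 1.72 over all libraries, so its TPM there cannot be compared with other strains.

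The strains' founders were compared first, each against C57BL/6J, to ask which H2 genes separate the parental haplotypes. A member was called where its adjusted p (Benjamini-Hochberg, over all genes tested) was under 0.05 in the quasi-likelihood test of edgeR, with the spread pooled over the 59 strains. The 4 contrasts share the C57BL/6J libraries, so their results are given side by side and are not independent. Among all genes called with an absolute log2 change of at least 1, libraries of the 2 strains rarely overlapped. Genes without overlap were 300 of 300 in DBA/2J, 346 of 348 in BALB/cJ, 343 of 345 in A/J and 308 of 308 in C3H/HeJ. Statements that a called member did not overlap are therefore no further support for its call.

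In DBA/2J, 6 of 31 members were called against C57BL/6J, 5 higher and 1 lower, where 2.3% of all genes were called, 1.25% higher and 1.05% lower. H2-Ea-ps stood at 131.7 CPM in the female and 387 CPM in the male DBA/2J library, against 0.0678 and 0.0371 CPM in C57BL/6J. These C57BL/6J values rest on 2 and 1 counts, so the ratio of the pooled counts was 5274 with an exact counting interval from 1805 to 25578, and the fitted log2 change of 12.22 ± 1.87 (SE) depends on the prior count (adjusted p = 4.63e-06). Both DBA/2J libraries thus lay far above both C57BL/6J libraries, as the map of the parental libraries shows.

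Among the class I members, H2-K2, an unprocessed pseudogene next to H2-K1, measured 104.1 and 124.01 CPM in DBA/2J against 13.1 and 5.93 CPM in C57BL/6J (log2 change 3.59 ± 0.60, adjusted p = 2.22e-05). In the T and Q regions, H2-Bl and H2-Q1 were higher as well. H2-Bl stood at 5.75 and 7.61 CPM against 0.576 and 0.185 CPM (log2 change 4.13 ± 0.64, adjusted p = 3.66e-06). H2-Q1 stood at 4.10 and 4.67 CPM against 0.305 and 0 CPM (log2 change 4.77 ± 0.88, adjusted p = 0.000128). H2-Q2 was at 34.5 and 44.04 CPM against 4.03 and 0.111 CPM (log2 change 4.96 ± 1.40, adjusted p = 0.0373), and this call was lost without the C57BL/6J female (adjusted p = 0.0756), the C57BL/6J male (0.569) or the DBA/2J male library (0.265). The libraries of the 2 strains did not overlap in these 4 genes.

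H2-K1 was the member that fell in DBA/2J, with 399 and 446 CPM against 961 and 1197 CPM (log2 change -1.36 ± 0.28, adjusted p = 0.000901). On the TPM scale the values were 949 and 1148 against 1402 and 1489, a log2 difference of -0.47 that limma did not call (adjusted p = 0.9999 with a pseudocount of 0.1). The call on H2-K1 therefore holds for counts and not for length-scaled values. H2-M9 was not called by edgeR with all libraries (log2 change -2.18 ± 0.72, adjusted p = 0.123). DESeq2 (-2.19, adjusted p = 0.0395) and limma on log2(TPM + 0.1) (-2.61, adjusted p = 0.0251) called it lower. Without the DBA/2J male library the edgeR log2 change was -4.17.

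BALB/cJ, which carries the same haplotype as DBA/2J, had 6 of 31 members called, 5 higher and 1 lower, where 2.59% of all genes were called, 1.31% higher and 1.29% lower. H2-Ea-ps measured 441 and 330 CPM in its female and male library. Its pooled counts were 7310 times those of C57BL/6J (counting interval 2501 to 35451), with a fitted log2 change of 12.70 ± 1.89 (adjusted p = 2.91e-06). H2-K2 stood at 82.9 and 107.1 CPM (log2 change 3.32 ± 0.60, adjusted p = 9.01e-05). Both were above the C57BL/6J libraries in each BALB/cJ library.

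The other calls in BALB/cJ were H2-Bl, at 7.11 and 8.12 CPM (log2 change 4.30 ± 0.64, adjusted p = 2.14e-06), and H2-Q1, at 5.83 and 5.79 CPM (log2 change 5.16 ± 0.89, adjusted p = 4.08e-05). H2-Q2, at 31.2 and 35.7 CPM, passed narrowly (log2 change 4.69 ± 1.39, adjusted p = 0.0498) and was lost when any 1 of the 4 libraries was left out: without the BALB/cJ female (adjusted p = 0.0589), the BALB/cJ male (0.243), the C57BL/6J female (0.0689) or the C57BL/6J male (0.644). H2-M9 was not called by edgeR (log2 change -2.31 ± 0.73, adjusted p = 0.074), and DESeq2 called it lower (-2.31, adjusted p = 0.0207). H2-K1 fell in BALB/cJ too, to 433 and 397 CPM (log2 change -1.39 ± 0.28, adjusted p = 0.000663). Its call was lost without the BALB/cJ male library (adjusted p = 0.0879) and on the TPM scale (log2 difference -0.41, limma adjusted p = 0.711 with a pseudocount of 0.1).

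A/J differed from C57BL/6J in 9 of 31 members, 6 higher and 3 lower, where 2.76% of all genes were called, 1.47% higher and 1.29% lower. Of the 9, 5 lie in the T region. H2-T22, a class Ib gene whose product binds gamma delta T cell receptors, stood at 10.2 and 10.8 CPM in A/J against 141.7 and 139.6 CPM in C57BL/6J (log2 change -3.76 ± 0.34, adjusted p = 9.50e-13). H2-T23, which encodes Qa-1, the ligand of the NKG2A receptor of natural killer cells, stood at 18.3 and 12.9 CPM against 131.4 and 67.3 CPM (log2 change -2.66 ± 0.49, adjusted p = 0.000147). Both A/J libraries were below both C57BL/6J libraries in these genes.

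H2-T10, the close relative of H2-T22, went the other way in A/J, at 45.7 and 46.1 CPM against 14.5 and 6.01 CPM (log2 change 2.16 ± 0.52, adjusted p = 0.00737). H2-T22 and H2-T10 share 47.2% of the 31-base stretches of H2-T22, so a count of either gene cannot be fully told apart from the other. H2-T-ps rose from 1.32 and 0.334 CPM to 11.04 and 9.17 CPM (log2 change 3.67 ± 0.82, adjusted p = 0.00265), and H2-Bl from 0.576 and 0.185 CPM to 1.97 and 1.67 CPM (log2 change 2.24 ± 0.61, adjusted p = 0.0239). Without the C57BL/6J male library, H2-T10 (adjusted p = 0.357), H2-T-ps (0.187) and H2-Bl (0.485) were no longer called. H2-T10 was also lost without the A/J male (0.0521), and H2-Bl without the A/J female (0.111) or the A/J male library (0.0776).

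Outside the T region, A/J was higher in H2-Ea-ps (49.9 and 79.1 CPM, pooled ratio 1201 with a counting interval from 411 to 5824, adjusted p = 9.55e-05). It was also higher in H2-K2 (80.2 and 96.5 CPM, log2 change 3.22 ± 0.59, adjusted p = 0.000147) and H2-Q1 (5.504 and 4.97 CPM, log2 change 5.02 ± 0.88, adjusted p = 6.21e-05). H2-K1 fell to 543 and 415 CPM (log2 change -1.17 ± 0.28, adjusted p = 0.00624). That call was lost without the A/J male library (adjusted p = 0.226), without the C57BL/6J male library (0.102) and on the TPM scale (log2 difference -1.11, limma adjusted p = 0.106 with a pseudocount of 0.1).

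C3H/HeJ differed in 8 of 31 members, 5 higher and 3 lower, where 2.49% of all genes were called, 1.23% higher and 1.26% lower. H2-D1, the second classical heavy chain, stood at 298 and 406 CPM in C3H/HeJ against 1170 and 1355 CPM in C57BL/6J (log2 change -1.87 ± 0.24, adjusted p = 4.61e-08). On the TPM scale these were 351 and 497 against 1084 and 1130. H2-K1 was at 871 and 1013 CPM and was not called. C3H/HeJ was thus the founder in which H2-D1 and not H2-K1 fell.

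The Qa-2 genes H2-Q6 and H2-Q7, which encode glycolipid-anchored class Ib molecules, were lower in C3H/HeJ. H2-Q6 measured 4.67 and 8.40 CPM against 151 and 68.5 CPM (log2 change -4.06 ± 0.62, adjusted p = 3.74e-06), and H2-Q7 measured 10.4 and 9.79 CPM against 248 and 89.9 CPM (log2 change -4.03 ± 0.94, adjusted p = 0.00504). The H2-Q7 call was lost without the C3H/HeJ female (adjusted p = 0.157), the C3H/HeJ male (0.126) or the C57BL/6J female library (0.0898). Neither gene overlapped between the 2 strains.

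Of the 8 members called in C3H/HeJ, 5 were higher. H2-Ea-ps stood at 355 and 291 CPM (pooled ratio 6101, counting interval 2088 to 29589, adjusted p = 3.74e-06) and H2-Q1 at 19.3 and 30.1 CPM, the highest H2-Q1 levels of the 5 founders (log2 change 7.26 ± 0.95, adjusted p = 7.94e-08). H2-T-ps measured 18.05 and 21.2 CPM (log2 change 4.66 ± 0.85, adjusted p = 0.00011). The calls on H2-T24 (60.4 and 92.6 CPM against 20.4 and 8.20 CPM, log2 change 2.42 ± 0.61, adjusted p = 0.0119) and H2-Bl (2.61 and 2.43 CPM, log2 change 2.70 ± 0.61, adjusted p = 0.00325) were lost without the C57BL/6J male library (adjusted p = 0.448 and 0.254), and that on H2-T24 also without the C3H/HeJ male library (0.213).

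**Figure D1:**
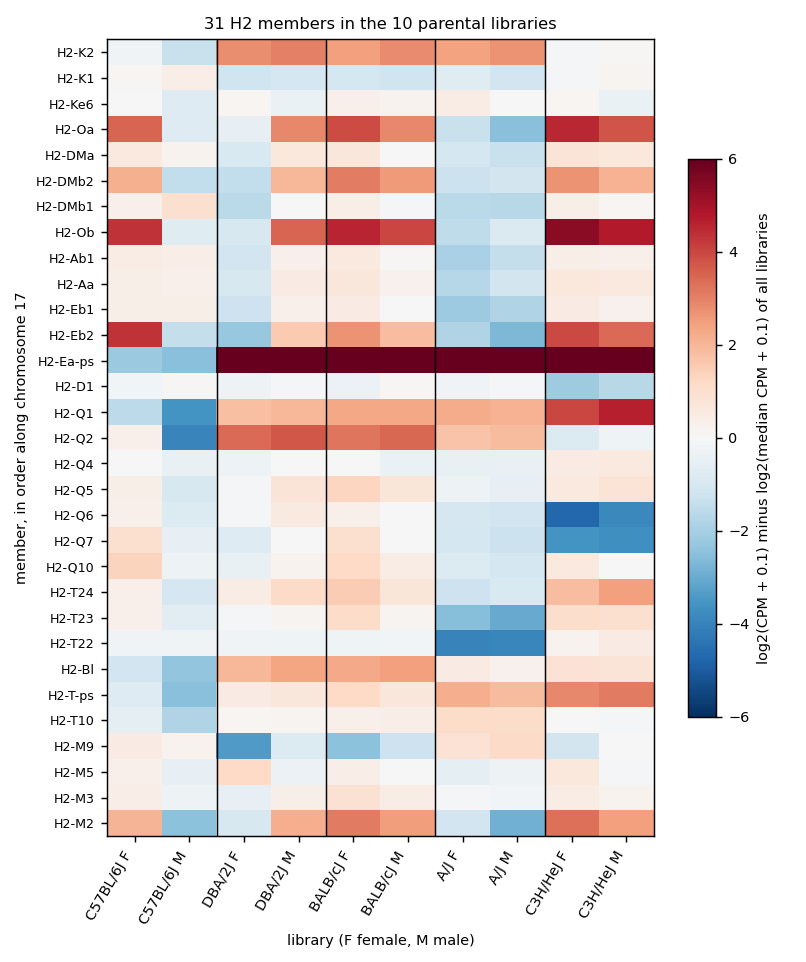
Levels of the 31 tested members in the female (F) and male (M) library of the 5 founder strains, as log2(CPM + 0.1) minus log2(median CPM + 0.1) of all libraries, in order along chromosome 17; colours stop at 6 in either direction, which H2-Ea-ps passes in all 8 libraries of the founders other than C57BL/6J. H2-T22 is low in A/J, and H2-D1, H2-Q6 and H2-Q7 are low in C3H/HeJ. H2-K2 is high in DBA/2J, BALB/cJ and A/J, and H2-Q2 is highest in DBA/2J and BALB/cJ. H2-Ob and H2-Oa differ between the female and male library of C57BL/6J and DBA/2J.

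**Figure D2:**
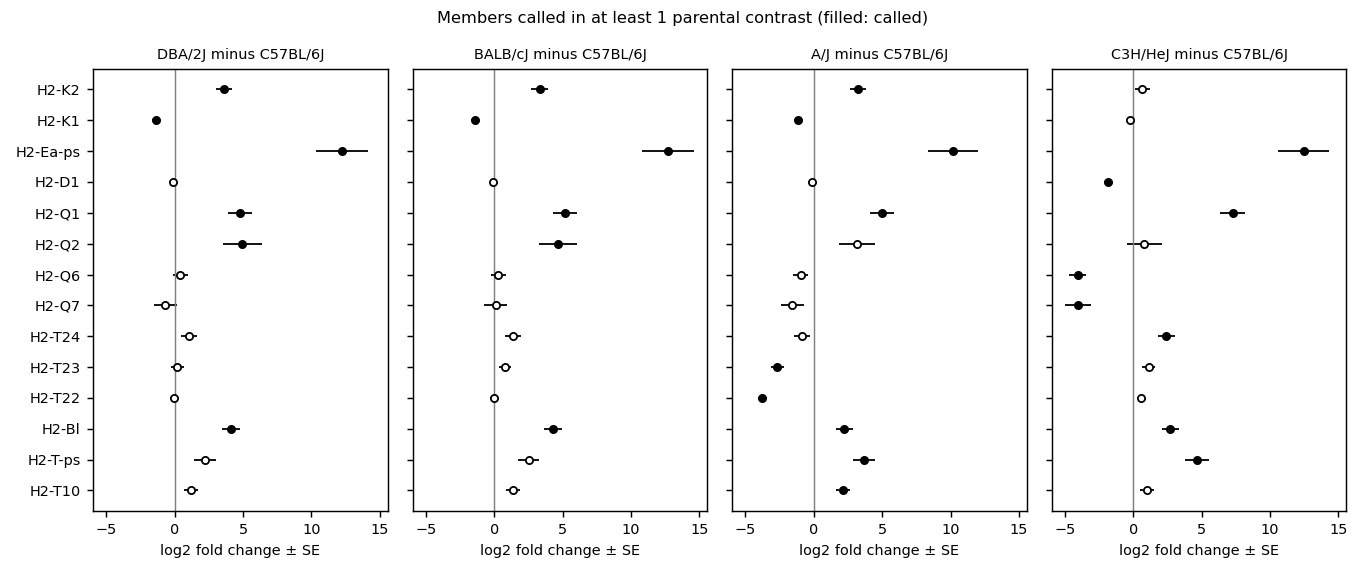
Fitted log2 fold change with its SE for each founder minus C57BL/6J, for the 14 members called in at least 1 contrast; filled points were called at adjusted p under 0.05. H2-Ea-ps, H2-Q1 and H2-Bl are called higher in all 4 contrasts, H2-K1 is called lower in 3 and H2-D1 in C3H/HeJ only.

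Over the 31 members the median absolute log2 change was 0.69 in DBA/2J, 0.85 in BALB/cJ, 2.16 in A/J and 0.88 in C3H/HeJ, beside 0.21, 0.35, 0.27 and 0.31 over all genes tested. The class II members other than H2-Ea-ps stayed uncalled in each of the 4 contrasts. Of these 9 genes, edgeR's unadjusted p was under 0.05 for 0 in DBA/2J, BALB/cJ and C3H/HeJ and for 6 in A/J, and DESeq2 called 4 of the 9 in A/J (H2-Ab1, H2-DMb1, H2-Eb1 and H2-Eb2, all lower) and 0 in the other 3 contrasts. In A/J the 9 fitted log2 changes lay between -6.35 and -1.65, and those of 3 B cell markers (Ms4a1, Cd79a and Cd79b) between -5.50 and -5.11 (0 of 3 called by edgeR, 3 of 3 at an unadjusted p under 0.05, 1 of 3 called by DESeq2).

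The levels of H2-Aa, a class II chain, went with the B cell marker sum in some single libraries and not in others. H2-Aa was at 459 and 446 CPM in C57BL/6J, 183 and 507 CPM in DBA/2J, 575 and 429 CPM in BALB/cJ, 551 and 532 CPM in C3H/HeJ, and 110 and 169 CPM in A/J (female, then male). The summed CPM of these B cell markers in the same libraries was 233 and 3.78, 2.45 and 147, 421 and 254, 426 and 252, and 1.62 and 3.14. DBA/2J is an example within 1 strain, where the female library was low and the male library high in both, and in C57BL/6J H2-Aa was alike in both libraries although the B cell sum was not.

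H2-Ob, the beta chain of H2-DO, followed the B cell sum more closely. It stood at 84.97 and 2.48 CPM in the female and male C57BL/6J library, at 2.07 and 47.8 CPM in DBA/2J and at 1.39 and 2.21 CPM in A/J. H2-Eb2, an E beta chain gene, was likewise higher in the female C57BL/6J library (17.1 and 0.222 CPM) and in the male DBA/2J library (0.0767 and 2.46 CPM). In A/J it was at 0.145 and 0.0321 CPM, from 5 and 1 counts, which is not the order of the B cell sum. Inguinal fat contains a lymph node. With the mean of the B and T cell markers as a covariate, an alternative added after seeing the data, edgeR called 3 of the 9 class II members lower in A/J, namely H2-Ab1 (log2 change -1.51, adjusted p = 0.0197), H2-DMb1 (-1.81, adjusted p = 0.0144) and H2-Eb1 (-1.76, adjusted p = 0.0137), and H2-Eb2 lower in BALB/cJ (-2.66, adjusted p = 0.00125). In whole tissue, fewer cells of a type and less RNA per cell cannot be told apart.

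Across the paired libraries, Spearman's rho with the B cell sum was 0.93 for H2-Ob, 0.88 for H2-Eb2, 0.88 for H2-Oa, 0.86 for H2-DMb2, 0.82 for H2-DMa, 0.78 for H2-Aa, 0.78 for H2-Ab1 and 0.72 for H2-Eb1. Outside class II, H2-M3, which presents formylated peptides, reached 0.85 and H2-M2 0.82. It was 0.25 for H2-K1, -0.05 for H2-D1, 0.14 for H2-T22, 0.11 for H2-Ea-ps and 0.04 for H2-Q1. With the summed T cell markers rho was 0.88 for H2-Ob, 0.90 for H2-Oa, 0.89 for H2-M2 and 0.79 for H2-Aa, and with the adipocyte markers it was -0.70, -0.80, -0.81 and -0.61. In the same order, rho was -0.14, -0.19, -0.26 and 0.02 with the macrophage markers (Adgre1, Csf1r, Cd68, C1qa and Mrc1). With the dendritic cell markers (Flt3, Zbtb46, Xcr1, Itgax and Cd209a) it was 0.33, 0.30, 0.28 and 0.54. These are descriptions over libraries that share strains and depth. With the B cell sum, the 9 class II members other than H2-Ea-ps lay between 0.64 (H2-DMb1) and 0.93 (H2-Ob).

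**Figure D3:**
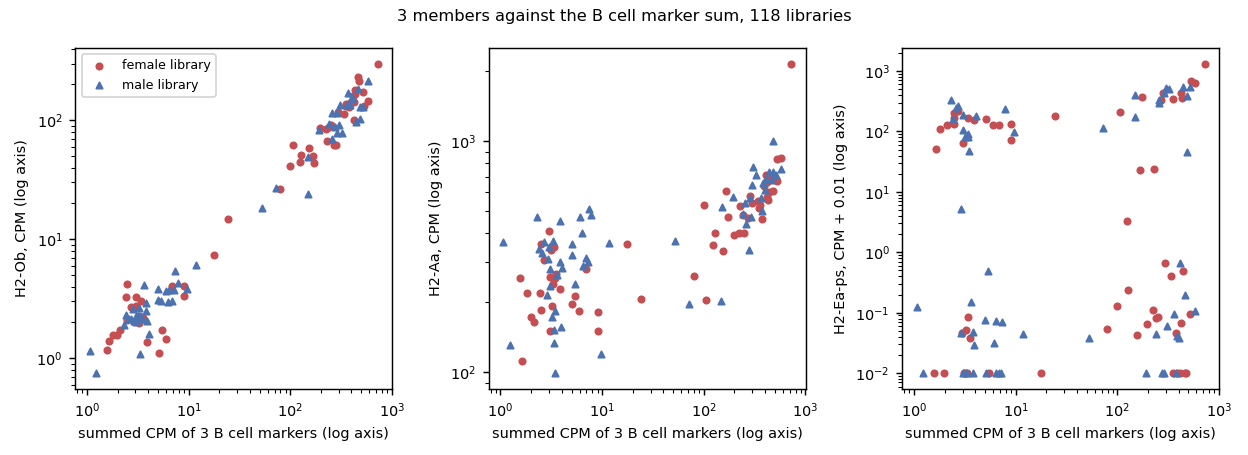
CPM of H2-Ob, H2-Aa and H2-Ea-ps (0.01 added for H2-Ea-ps) against the summed CPM of 3 B cell markers in the paired libraries, both axes logarithmic; circles are female and triangles male libraries. H2-Ob rises with the marker sum over its whole range (rho 0.93), H2-Aa rises with more scatter (0.78), and low and high values of H2-Ea-ps both occur at low and at high marker sums (0.11).

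The recombinant inbred strains each carry a fixed mix of 2 founder genomes, so every H2 gene that separates the founders can be read in many independent strains. In the BXD family H2-Ea-ps fell into 2 bands with nothing between them. In 37 libraries of 21 strains it lay between 0 and 3.10 CPM, and in 29 libraries of 19 strains between 87.1 and 685 CPM, with no strain in both bands. Without the BXD34/TyJ and BXD69/RwwJ libraries, whose Y-linked counts go against their label, the high band kept 27 libraries of 17 strains over the same range.

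Within the low band, the highest values belonged to BXD43/RwwJ (3.10 CPM female, 0.478 CPM male, from 99 and 16 counts) and to BXD15/TyJ (2.43 CPM male, 72 counts). These libraries stand above the 3 counts taken as the floor of detection, and well below every library of the high band. The other low values went down to 0 counts, which at the median depth allows up to 0.0992 CPM.

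The BXD libraries also fell into a low and a high band in H2-K2, H2-Bl, H2-Q2 and H2-Q1. H2-K2 was at 3.16 to 19.4 CPM in 37 libraries and 79.5 to 160 CPM in 29. H2-Bl was at 0 to 0.710 CPM in 37 and 4.07 to 28.9 CPM in 29, the upper end being 16.3 CPM without the 2 libraries just named. H2-Q2 lay at 0 to 3.75 CPM in 37 and 13.2 to 63.01 CPM in 29, the lower end being 22.96 CPM without those 2 libraries. H2-Q1 had its widest gap between 1.40 and 3.40 CPM, with 39 libraries below it and 27 above. No strain lay in both bands for these 4 genes, which the founder contrast had called.

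To compare both libraries of a strain, each was placed nearer to DBA/2J or to C57BL/6J on the log2 CPM scale, at the midpoint between the founders' means. In the 26 BXD strains with both sexes, H2-Ea-ps, H2-K2, H2-Bl, H2-Q1 and H2-Q2 put 10 strains with DBA/2J and 16 with C57BL/6J, and the female and male library were on the same side in 26 of 26 strains for each of the 5. H2-K1, whose founder difference is smaller, agreed in 24 of 26. The exceptions were BXD56/RwwJ (620 CPM female, 719 CPM male) and BXD84/RwwJ (674 CPM female, 897 CPM male), which straddle the midpoint. Over the 6 members 154 of 156 library pairs (98.7%) were on 1 side, beside 92.2% of 7800 pairs for all 300 genes called in the same founder contrast with an absolute log2 change of at least 1 (1.79% of those tested). The members lie close together on chromosome 17, so in every family the pairs of a strain are not independent. These shares are a description only.

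The members also went together along the chromosome. From H2-K2 at position 33974659 to H2-Bl at 36080115, every BXD strain that a member placed on 1 side was on the same side as H2-Ea-ps for that member, in 26 of 26 strains for H2-K2, H2-Q1, H2-Q2 and H2-Bl and in 24 of 24 for H2-K1. Apart from the 2 strains that H2-K1 did not place, no BXD strain with both libraries changed side within the complex by these 6 genes.

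**Figure D4:**
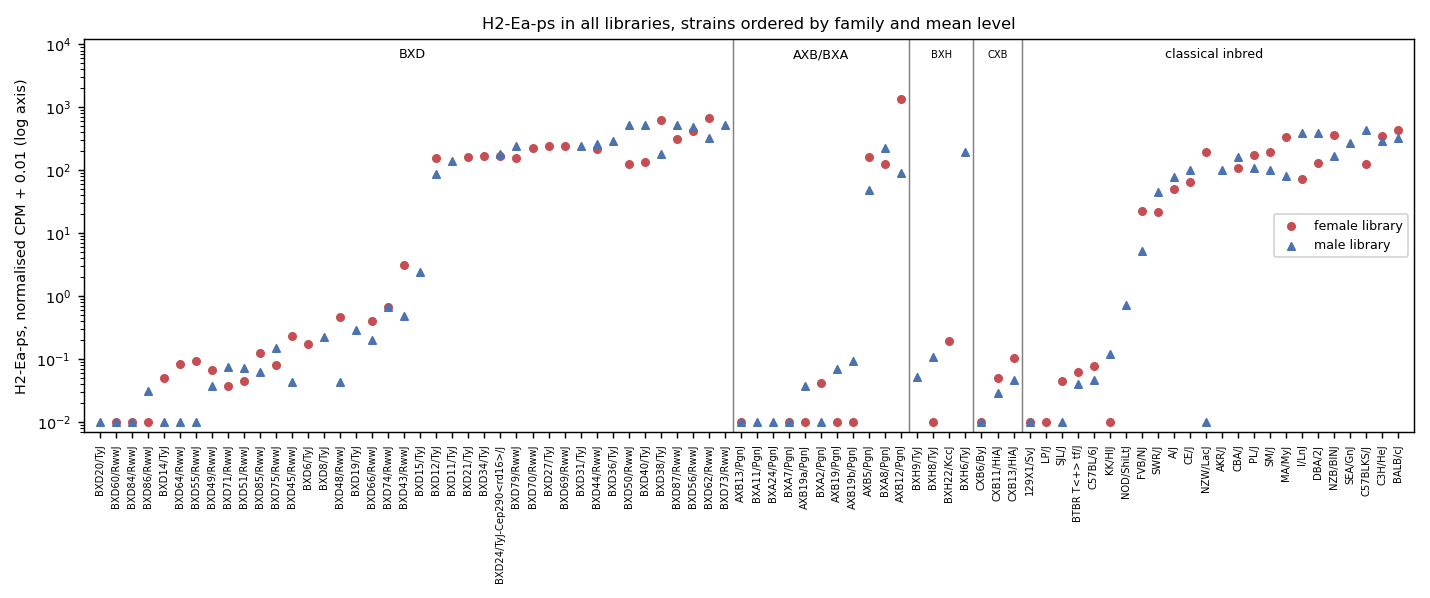
Normalised CPM of H2-Ea-ps plus 0.01 (log axis) in every library of 82 strains, by family and ordered by mean level; circles are female and triangles male libraries, and points at 0.01 had no counts. The BXD strains split into a band up to 3.10 CPM and a band from 87.1 CPM, 3 AXB or BXA strains and BXH6/TyJ are high, all 3 CXB strains are low, and the library labelled NZW/LacJ male is at 0 while the female is at 197 CPM.

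Among the 9 AXB and BXA strains with both libraries, 3 (AXB5/PgnJ, AXB12/PgnJ and BXA8/PgnJ) lay on the A/J side and 6 on the C57BL/6J side for H2-Ea-ps, H2-K2, H2-T22 and H2-Bl, with both sexes agreeing in 9 of 9. AXB19/PgnJ, AXB19a/PgnJ and AXB19b/PgnJ carry related names and may not be 3 independent strains. H2-Ea-ps was at 166 and 48.1 CPM in AXB5/PgnJ, 1343 and 91.97 CPM in AXB12/PgnJ and 125 and 230 CPM in BXA8/PgnJ, against 0 to 0.0842 CPM in the 14 libraries of the other 8 strains. H2-T22 ran the other way, at 7.97 to 22.5 CPM in the 6 libraries of these 3 strains and 140 to 370 CPM in the other 14.

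AXB12/PgnJ shows how far the 2 libraries of a strain can part. Its female library was the highest of all for H2-Ea-ps and, at 2182 CPM, for H2-Aa, and its B cell marker sum of 735 CPM was the highest among the female libraries. H2-T23 in AXB12/PgnJ was at 86.2 CPM in the female and 15.5 CPM in the male library and fell on different sides. H2-K1 agreed in 6 of 9 strains and H2-T10 in 6 of 9, and the 3 strains that H2-K1 did not place were the 3 on the A/J side. Strains placed by a member were on the side of H2-Ea-ps in 9 of 9 for H2-K2, H2-T22 and H2-Bl, in 8 of 8 for H2-Q1, H2-T23 and H2-T-ps, in 6 of 6 for H2-K1 and in 5 of 6 for H2-T10. The exception was AXB19a/PgnJ, on the A/J side for H2-T10 and on the C57BL/6J side for H2-Ea-ps. Over 9 members 72 of 81 pairs (88.9%) were on 1 side, close to the 88.3% of 3087 pairs for 343 of the genes called by the same rule against A/J (2.06% of those tested), so the members' share was near the background.

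BXA24/PgnJ had only a male library, in which H2-Bl stood at 2.90 CPM (32 counts) while H2-Ea-ps was at 0, H2-K2 at 11.3 CPM and H2-T22 at 173 CPM. H2-Bl was thus at an A/J-like level and the other 3 at C57BL/6J-like levels in this library, which has no second library to compare.

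All 3 CXB strains with both libraries (CXB6/ByJ, CXB11/HiAJ and CXB13/HiAJ) were nearer C57BL/6J for each of 6 members, with 18 of 18 pairs agreeing, beside 85.5% of 1038 pairs for genes called by that rule against BALB/cJ (2.08% of those tested). BXH8/TyJ, the single BXH strain with both libraries, was nearer C57BL/6J for 8 of 8 members in both, beside 91.2% of 308 pairs for genes called by that rule against C3H/HeJ (1.84% of those tested). In both families the members repeat the same few strains and are not independent. The male BXH6/TyJ library resembled C3H/HeJ, with H2-Ea-ps at 198 CPM, H2-D1 at 415 CPM, H2-Q6 at 3.88 CPM, H2-Q7 at 6.36 CPM and H2-Q1 at 16.5 CPM. The other 4 BXH libraries had H2-Ea-ps between 0 and 0.183 CPM.

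The classical inbred strains carry more haplotypes than the founders, and single members separated them in different ways. H2-Ea-ps was at most 0.705 CPM in 129X1/SvJ, BTBR T<+> tf/J, C57BL/6J, KK/HlJ, LP/J, NOD/ShiLtJ and SJL/J, and at least 49.9 CPM in every library of 14 other strains. FVB/NJ (22.9 and 5.20 CPM) and SWR/J (21.4 and 44.9 CPM) lay between. NZW/LacJ had 197 CPM in the female library and 0 in the library labelled male. With that library left out, 7 strains were at or below 0.705 CPM and 17 at or above 5.20 CPM, with none on both sides.

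FVB/NJ and SWR/J stood out in 2 more members. H2-Eb1, the E beta chain that pairs with the E alpha chain, was at 10.49 and 8.80 CPM in FVB/NJ and 9.99 and 21.2 CPM in SWR/J, the lowest of the classical strains, where the other libraries held at least 46.6 CPM. H2-Bl was at 30.8 and 31.7 CPM in FVB/NJ and 36.03 and 41.2 CPM in SWR/J, against at most 10.2 CPM in the other classical strains. Both sexes agreed in both strains.

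H2-D1 was low in C3H/HeJ, CBA/J, CE/J, MA/MyJ and SJL/J and in the single AKR/J library, at 298 to 439 CPM, against at least 627 CPM in the other classical libraries. Without the library labelled NZW/LacJ male (882 CPM), the widest gap lay between 627 and 958 CPM and the female SM/J library, at 627 CPM, joined the 11 low ones, while the male SM/J library was at 1433 CPM. H2-Q6 and H2-Q7 were low in the same strains except SJL/J, with H2-Q6 at 4.06 to 8.40 CPM and H2-Q7 at 5.14 to 16.05 CPM, and H2-Q7 was also low in the NZW/LacJ female library (10.9 CPM). SJL/J, in contrast, had 192 and 121.9 CPM of H2-Q6 and 504 and 297 CPM of H2-Q7. The low H2-D1 group and the low H2-Q6 group therefore share 5 strains and differ in 1.

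The low H2-T22 level of A/J recurred in FVB/NJ (17.2 and 10.46 CPM), KK/HlJ (7.87 and 10.1 CPM), NZB/BlNJ (15.8 and 19.6 CPM), SJL/J (20.7 and 19.5 CPM) and SWR/J (11.6 and 16.04 CPM), and in the male NOD/ShiLtJ library (15.5 CPM). PL/J was at 14.3 CPM in the female and 48.5 CPM in the male library. The remaining classical libraries lay between 68.8 and 295 CPM. This group mixes strains with low and with high H2-Ea-ps, since KK/HlJ and SJL/J were at the floor for H2-Ea-ps and A/J was not.

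H2-K2 was at 80.2 to 176 CPM in A/J, BALB/cJ, C57BLKS/J, DBA/2J, NZB/BlNJ, PL/J and SEA/GnJ (7 strains, 13 libraries) and at 3.45 to 30.03 CPM in the other 17 strains. C57BLKS/J had 125 and 129 CPM of H2-K2, 449 and 454 CPM of H2-K1, 6.60 and 6.16 CPM of H2-Q1 and 125.7 and 430 CPM of H2-Ea-ps. For these 4 genes its values lay at the DBA/2J levels and not at those of C57BL/6J.

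Whether the 2 libraries of a strain resembled each other was measured over the 59 strains as the share of the variance of log2 CPM that lay between strains. The median share was 60% for the 31 members and 29.4% for all genes tested (quartiles 18.9% and 41.5%). It passed 80% in 9 of 31 members, where 2.08% of all genes did, and 50% in 18 of 31, where 14.3% did. The strain F test called 29 of 31 members, where 71.2% of all genes were called, and the 2 it did not call were H2-M2 and H2-M5. Without the filter on low counts the call on H2-Aa was lost (adjusted p = 0.0583).

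The members with the highest shares were H2-T22 (95.2%), H2-Ea-ps (93.8%), H2-Q1 (93.5%), H2-Bl (93.2%), H2-K2 (89.3%), H2-T-ps (86.3%), H2-D1 (85.9%), H2-K1 (81.9%) and H2-Q6 (81.3%). In H2-T22 the SD within a strain was 0.313 on the log2 scale against 1.39 between strains. H2-D1 and H2-K1 reached similar shares with small differences, with an SD within strains of 0.223 and 0.275 and between strains of 0.551 and 0.585.

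The class II members other than H2-Ea-ps had lower shares. H2-Aa had 17.6% of its variance between strains, H2-DMa 17.97%, H2-DMb2 25.5%, H2-Oa 25.5%, H2-Ab1 25.7%, H2-DMb1 28.7%, H2-Ob 30.6% and H2-Eb2 33.5%, beside the 29.4% that was the median of all genes. H2-Eb1 was higher than these, at 60%. H2-M2 had the lowest share, 3.5%, and an SD within strains of 2.46. H2-M2, H2-Oa, H2-Ob and H2-DMb2, with the largest SD within strains beside H2-Eb2, are also among the members with a rho over 0.80 with the B cell sum.

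NZW/LacJ was the strain whose 2 libraries differed most over the members, with a root mean square log2 difference of 4.03 against 3.28 for the next strain, AXB12/PgnJ. H2-Q7 was at 10.9 CPM in the female and 621 CPM in the library labelled male, H2-Q6 at 58.8 and 215 CPM, H2-T10 at 9.84 and 85.1 CPM and H2-Ea-ps at 197 and 0 CPM. The labelled male library was nearest to the CXB6/ByJ female (0.663), the BTBR T<+> tf/J male (0.680) and the AXB19a/PgnJ male library (0.691), while the NZW/LacJ female was no nearer than 1.31 to any library. Without this strain the share between strains rose to 97.4% for H2-Ea-ps, from 62.4% to 74.5% for H2-Q7 and from 74.1% to 81.6% for H2-T10, and the medians were 60.6% for the members and 31.7% for all genes.

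**Figure D5:**
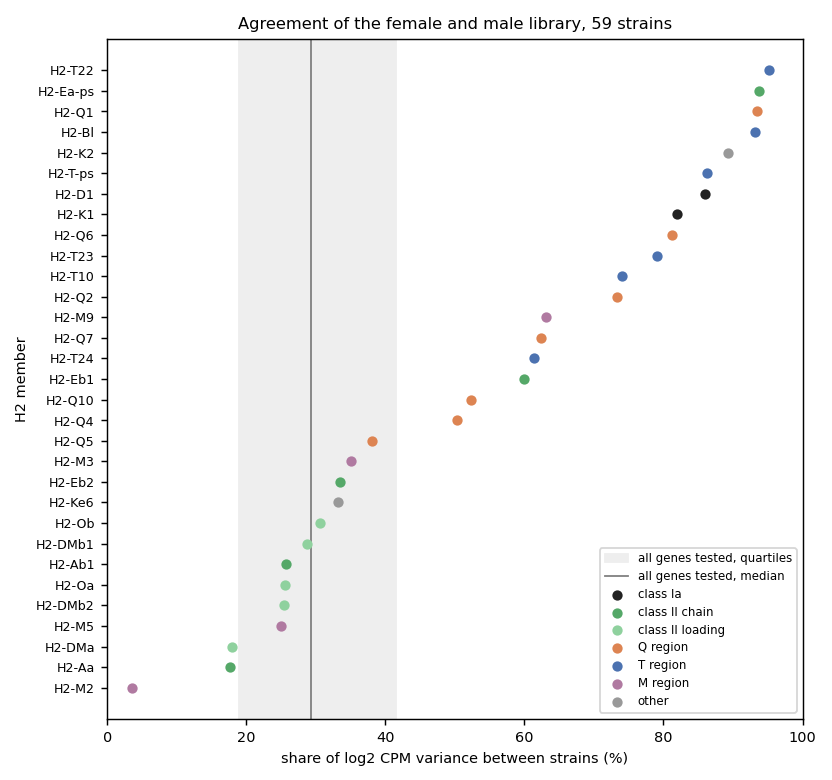
Share of the variance of log2 CPM that lies between 59 strains, for the 31 tested members, coloured by class; the line and grey band are the median (29.4%) and quartiles (18.9% and 41.5%) of all genes tested. Class I heavy chains and most T and Q region members lie to the right of the band, class II loading genes and H2-Aa lie in it or to its left, and H2-M2 is lowest at 3.5%.

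Between strain families, 5 of 34 members were called on counts summed over the 2 libraries of a strain, where 12.2% of all genes were. The 5 called members were H2-T3 (adjusted p = 6.76e-05), H2-T-ps (7.63e-05), H2-T10 (0.0118), H2-Bl (0.0323) and H2-Q1 (0.0383), of which 4 lie in the T region. With female libraries only, H2-T10 (adjusted p = 0.0512), H2-Q1 (0.0694) and H2-Bl (0.0765) were no longer called. The strain mean of H2-T-ps had a median of 11.8 CPM over 20 classical strains, 1.67 over 26 BXD, 1.46 over 9 AXB or BXA and 0.929 over 3 CXB strains. H2-Q1 had medians of 5.29, 0.232, 0.172 and 0.251 CPM in the same order. Ranges of the families overlapped in both genes, and the share of members called was near the background.

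Between the sexes within strains, 8 of 31 members were called, where 58.1% of all genes were. The median absolute log2 difference was 0.15 in the members and 0.17 over all genes tested. Of the 8, 5 were higher in female libraries, as were 28.4% of all genes, and 3 were lower, as were 29.8%.

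H2-D1 was female-lower with the smallest error, at a log2 difference of -0.22 ± 0.04 (adjusted p = 1.24e-05) and a higher female value in 11 of 59 strains. H2-T22 was lower by a log2 difference of -0.22 ± 0.06 (adjusted p = 0.000914, female higher in 13 of 59), and H2-M9 by -0.37 ± 0.13 (adjusted p = 0.0127, female higher in 21 of 59). H2-K1 was at -0.10 ± 0.05 and was not called (adjusted p = 0.0757). With plain library totals in place of TMM only 1 of these 3 remained called lower, and the median of all genes moved by over 0.1 on the log2 scale (to 0.12 from 0.01). On the TPM scale H2-D1 was not called (limma adjusted p = 0.0597 with a pseudocount of 0.1).

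Female-biased members were H2-Q2 (log2 difference 1.35 ± 0.25, adjusted p = 7.60e-06, higher in 41 of 59 strains), H2-M2 (1.21 ± 0.48, adjusted p = 0.0251, 41 of 59), H2-M5 (0.50 ± 0.12, adjusted p = 0.000179, 39 of 59), H2-T-ps (0.44 ± 0.15, adjusted p = 0.00792, 38 of 59) and H2-T23 (0.34 ± 0.09, adjusted p = 0.000751, 42 of 59). Without NZW/LacJ, H2-Q7 was also called (log2 difference 0.34, adjusted p = 0.0289). In the fit with no strain term 1 of the 31 members, H2-M5, was called. H2-Q2 had a log2 difference of 0.06 in that fit. Its mean was 12.6 CPM in female and 12.04 CPM in male libraries (medians 3.84 and 2.06 CPM). Among the founders, H2-Q2 was higher in the male library of DBA/2J, BALB/cJ, A/J and C3H/HeJ. In C57BL/6J it was higher in the female library (4.03 against 0.111 CPM).

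Cell type markers moved with sex in the same libraries. Mammary epithelium markers (Epcam, Krt8, Krt18, Krt14 and Krt5) were all higher in females, with 5 of 5 called and a summed median of 404 CPM in females (range 60.98 to 1164) against 1.70 CPM in males (0.130 to 396). The 396 CPM belonged to the library labelled NZW/LacJ male, and without it the male libraries reached 265 CPM. The B cell sum had a median of 99.9 CPM in females (1.57 to 735) and 7.08 CPM in males (1.05 to 590.4), with 0 of 3 markers called by edgeR, 0 at an unadjusted p under 0.05 and 0 by DESeq2. The T cell sum (Cd3d, Cd3e, Cd3g and Cd2) had a median of 67.6 CPM in females and 12.1 CPM in males. Of these 4 markers edgeR called 0, and DESeq2 called 3 (Cd3d, Cd3e and Cd3g). By edgeR, adipocyte markers were called lower in females in 5 of 5, macrophage markers in 4 of 5 and dendritic cell markers in 2 of 5. Their part in the sex differences of the H2 genes was not tested, except that with the mean of the B and T cell markers as a covariate 5 members, among them H2-Aa (log2 difference -0.20, adjusted p = 0.0231) and H2-K1 (-0.13, adjusted p = 0.0223), were called lower.

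The sex difference did not differ detectably between BXD and other strains. The interaction test called 0 members and 0 genes, with 314 of 16765 genes and 1 of 31 members (H2-Q1) at an unadjusted p under 0.05, and no other tool was run on it. The female minus male log2 CPM of H2-Q1 averaged -0.29 ± 0.79 (SD, n = 26) in BXD and 0.36 ± 1.01 (SD, n = 33) in the other strains.

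Partner genes of the pathway were read from lists of class I presentation, class II presentation and interferon response genes. For sex, where 58.1% of all genes were called, 8 of 15 class I partners were called, 2 higher and 6 lower in females, among them B2m, the light chain of all class I molecules (log2 difference -0.26 ± 0.06, adjusted p = 5.37e-05), and Tap2, a subunit of the peptide transporter (0.20 ± 0.05, adjusted p = 0.00023). In the class II list 4 of 7 tested genes were called, 1 higher (Rfx5, 0.43 ± 0.09) and 3 lower, including the protease gene Ctss (-0.50 ± 0.15). In the interferon list 3 of 10 were called, Ifit1 and Isg15 higher and Gbp2 lower.

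In the founder contrasts 0 of the 15 class I and 0 of the 7 class II partners were called by edgeR or by DESeq2, with 1, 2, 2 and 0 of the class I and 0, 1, 0 and 0 of the class II genes at an unadjusted p under 0.05 in DBA/2J, A/J, C3H/HeJ and BALB/cJ. Of 10 interferon genes, 3 fell in A/J, where 1.29% of all genes were called lower, namely Oas1a (log2 change -1.43 ± 0.40, adjusted p = 0.03), Ifit3 (-1.43 ± 0.41, adjusted p = 0.0372) and Ifit1 (-1.30 ± 0.38, adjusted p = 0.0449). In BALB/cJ, also with 1.29% of all genes called lower, 2 fell, Ifit3 (-2.06 ± 0.42, adjusted p = 0.000735) and Rsad2 (-1.79 ± 0.39, adjusted p = 0.00186), and 0 were called in DBA/2J and C3H/HeJ by either tool, with 1 and 2 at an unadjusted p under 0.05. The strain F test called 14 of 15, 7 of 7 and 10 of 10 genes of the lists, where 71.2% of all genes were called.

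The genes most like H2-Aa over the paired libraries by Spearman's rho were Cd74, the invariant chain that chaperones class II molecules (0.98), Ciita, the class II transactivator (0.92), Ly86 (0.91), Evi2b (0.90) and Il10ra (0.90). Those most like H2-K1 were Rps18 (0.73), Gm19684 (0.67), Hmga1 (0.63), Cdsn (0.63) and Gm16181 (0.58), and all 5 lie on chromosome 17, Rps18 within 0.044 Mb of H2-K1. The neighbours of H2-Aa lie on 5 chromosomes other than 17. Among the members, H2-DMa and H2-Ab1 (0.97) and H2-Ab1 and H2-Aa (0.97) were the most alike pairs.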

How the data were processed

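Inguinal fat RNA was sequenced as stranded paired-end libraries. The authors quantified reads with kallisto 0.46.1 against the mouse transcripts of Ensembl 97 (GRCm38) and deposited estimated counts and TPM per gene, summed with tximport. Ensembl identifiers were given symbols from GENCODE M21. The members, gene lists and tests were chosen with earlier results of these data known.

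Estimated counts were rounded, and genes were kept by filterByExpr. TMM-scaled counts of the 59 strains with both sexes were fitted with strain and sex as terms in edgeR 4.0.16 (quasi-likelihood test, Benjamini-Hochberg adjustment, threshold 0.05) under R 4.3.3, and families were compared on counts summed per strain. Alternatives used DESeq2 1.42.0, limma 3.58.1 on log2(TPM + 0.1) or log2(TPM + 1), other scalings, no filter, a lymphocyte marker covariate, no strain term and libraries left out, and refits by edgeR took the dispersion trend of the main fit. The strain term pairs libraries of the same inbred strain, not of the same animal, and the female and male deviations of the 59 strains correlated with a median r of 0.549 (range -0.311 to 0.796, 45 over 0.1). Labels carry 1 mouse number per library, so p-values measure the spread between these libraries. Depth ran from 6269154 to 78562648 estimated counts, and intervals and floors (3 counts) cover counting error only. On simulated data the sex test recovered 198 of 199 changed genes (absolute log2 change 0.5 to 1) and the DBA/2J test 187 of 200 (absolute log2 change 3), each over 4000 genes. Of the calls, 6 of 204 and 6 of 193 were false. The simulated spread followed the dispersion trend alone, so it does not show the recovery of members with a larger spread, such as H2-M2. Genes named with values were, by rule, the class Ia, class II chain and class II loading genes, other members called in a founder contrast with an absolute log2 change of at least 1, members called for sex, and the 5 genes outside the members most like H2-Aa and H2-K1 by Spearman's rho. H2-M3, H2-M10.1, H2-Q4, H2-Q5 and H2-T3 and single genes of the lists were named after their values were seen. 1 gene of the B cell marker list is not reported here and was left out of the marker sums and the covariate. Promoter windows came from RefSeq (GRCm38.p6).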

Additional observations from a re-analysis of the deposited data

How the results depend on the processing

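Results with one choice changed at a time are given as the number of the 31 members called (34 in the main family test). DESeq2 called 14 members in A/J (8 lower, against 3 by edgeR) and 2 lower in BALB/cJ and in DBA/2J (1 each by edgeR). A lymphocyte marker covariate, added after seeing the data for the founder contrasts, gave 6 lower in A/J, 2 lower in BALB/cJ, 8 higher in DBA/2J, and for sex 5 lower. Without NZW/LacJ, also added after seeing the data, 2 members were lower in BALB/cJ (H2-M9 in addition, adjusted p = 0.0353). With limma on TPM, 0 members were lower in BALB/cJ under either pseudocount and 0 in DBA/2J with a pseudocount of 1, and the family test called 3 (pseudocount 0.1) or 2 (pseudocount 1) in place of 5, and 2 with female libraries only. With library totals, 1 member was lower for sex, and the median change of all genes moved to 0.12 for sex, -0.16 in A/J, 0.20 in BALB/cJ and 0.19 in C3H/HeJ, and the share of all called genes that were higher moved from 48.8% with TMM to 72.8% for sex, 53.2% to 37.4% in A/J, 50.3% to 61.4% in BALB/cJ and 49.4% to 62.2% in C3H/HeJ. Leaving out 1 library at a time gave 3 to 6 members higher in A/J, 0 to 1 lower in BALB/cJ, 3 to 5 higher in C3H/HeJ and 1 to 2 lower in DBA/2J. The cause of these changes was not tested. A fit with fewer libraries can have a larger error, and fitted changes moved as well. For example, the log2 change of H2-Bl in A/J was 2.24 with all libraries and 1.68 without the C57BL/6J male library.

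The main sex fit pairs the libraries of a strain. With no replicate block (no strain term) 1 member was called for sex, 1 higher and 0 lower, against 8 with it. No named result reversed direction under these alternatives. Depth limits the low members: a count of 0 allows up to 0.0992 CPM at the median depth.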
